A study of Homo sapiens with 42 samples.

Results

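The H3K36 methyltransferase and demethylase genes NSD1, NSD2, NSD3, SETD2, ASH1L, KDM2A, KDM4A, KDM4B and KDM4C were followed through chromatin immunoprecipitation (ChIP-seq) lists from lung cancer cell lines. These 9 genes were taken by name from the 20033 protein-coding genes of GENCODE 44, with every annotated transcription start site (TSS), 1500 bp on either side of it, and the gene body. The series held 42 samples, of which 38 were ChIP libraries and 4 were inputs. NCI-H661, a large cell carcinoma line of the lung that makes the embryonic proteins DPPA2 and DPPA4 itself, was parental and untreated. It was profiled for DPPA2, DPPA4, H3K27ac, H3K4me1, H3K36me3, H3K36me2, H2AK119ub and H3K9me3 with 2 libraries each, and for KDM2A and SUZ12 with 1 library each. NCI-H1299, a line that lacks both proteins, carried stable Flag-DPPA2 and V5-DPPA4 transgenes behind a tet-response element and had been sorted as a population. The H1299 cells received doxycycline (DOX) at 2 µg/mL for 7 days, or water as control, and were profiled for H3K27ac, H3K4me1, H3K36me3, H2AK119ub and H3K9me3 with 2 libraries per mark and condition. The transgenes were present in control and DOX cells alike, so the 2 conditions differed in the addition of DOX. The proteins were cross-linked in 2 steps before ChIP and the histone marks in 1 step. The labels do not say whether replicates were separate cultures, so p-values measure the spread between libraries, which may be technical.

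Methylation of lysine 36 of histone H3 marks transcribed chromatin. SETD2 travels with elongating RNA polymerase II and deposits H3K36me3 over gene bodies, while NSD1, NSD2, NSD3 and ASH1L add the lower states, above all H3K36me2. KDM2A binds unmethylated CpG through its zinc finger and removes H3K36me2, and KDM4A, KDM4B and KDM4C remove methyl groups from H3K9me3 and H3K36me3. In lung cancer NSD3 is known as a gene of a recurrently amplified region and SETD2 as a recurrently mutated gene.

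Libraries differed in the number of islands and the reads in them. After limits of log2 fold above 1 over input and a false discovery rate (FDR) below 0.05, the 18 H661 libraries held 30041 to 127865 broad islands with 0.488 to 6.96 M reads in them, and the 20 H1299 libraries held 12301 to 103384 islands with 0.138 to 3.66 M reads. In H1299, 17.9% to 62.8% of a library's islands had no input read, so single folds rest on few reads there. Marker promoters were checked by H3K27ac in both replicates: KRT18 and VIM had it in both lines, KRT8, EPCAM, NKX2-1, DPPA2 and DPPA4 had it in H661 alone, and the lung surfactant gene SFTPC, the blood genes PTPRC and CD3E and the liver gene ALB had it in neither line. The lung marker NKX2-1 was thus not marked in H1299. The members are long genes with many starts: their median length was 148 kb against 27.5 kb for all genes, and they had 60 separate promoters in all with a median of 7 per gene against 2. Calls are therefore given both at any TSS and at the canonical TSS, the start of the main transcript.

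DPPA2 and DPPA4 are known for CG-rich binding sites, so the sequences under the peaks are shown first. A consensus peak was a region found in all 4 DPPA2 and DPPA4 narrow peak lists, with over 25% of each peak shared, and 8825 such peaks were found in H661. The members held 9 of them. The windows below reach 100 bp to either side of the summit of the first DPPA2 replicate, in hg38, plus strand, with every CG dinucleotide in capitals. NSD1 (chr5:177132168-177132368), NSD2 (chr4:1870548-1870748) and KDM2A (chr11:67117979-67118179) are shown because they had the 3 tallest peaks at canonical promoters in both DPPA2 libraries and DPPA4 replicate 2, while in DPPA4 replicate 3 NSD3 stood above NSD2 and KDM2A, and their summits lie at -1505, -745 and -1184 bp from the canonical TSS, where a minus sign is upstream. The KDM4B window (chr19:5048162-5048362) lies at an internal promoter within an intron, 79149 bp into the gene, and the internal KDM2A window (chr11:67239448-67239648) at an intronic promoter 120285 bp into the gene, shown as a binding site with few CG. None of the 5 windows overlaps an annotated exon of its own gene, and exons of other genes were not checked.
NSD1: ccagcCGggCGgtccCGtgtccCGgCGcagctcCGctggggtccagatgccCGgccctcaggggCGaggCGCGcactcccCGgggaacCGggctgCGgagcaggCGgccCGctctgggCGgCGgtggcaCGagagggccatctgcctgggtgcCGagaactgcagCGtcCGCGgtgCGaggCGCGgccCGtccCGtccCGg
NSD2: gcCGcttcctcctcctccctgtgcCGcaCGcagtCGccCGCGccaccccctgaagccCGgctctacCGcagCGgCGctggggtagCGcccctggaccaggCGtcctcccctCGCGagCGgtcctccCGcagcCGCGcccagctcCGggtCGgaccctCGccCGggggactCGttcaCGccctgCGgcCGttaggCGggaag
KDM2A canonical: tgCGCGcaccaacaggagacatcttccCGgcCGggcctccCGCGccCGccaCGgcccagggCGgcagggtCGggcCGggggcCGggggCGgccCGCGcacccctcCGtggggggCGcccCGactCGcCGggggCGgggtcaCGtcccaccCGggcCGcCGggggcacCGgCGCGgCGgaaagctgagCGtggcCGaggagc
KDM4B internal: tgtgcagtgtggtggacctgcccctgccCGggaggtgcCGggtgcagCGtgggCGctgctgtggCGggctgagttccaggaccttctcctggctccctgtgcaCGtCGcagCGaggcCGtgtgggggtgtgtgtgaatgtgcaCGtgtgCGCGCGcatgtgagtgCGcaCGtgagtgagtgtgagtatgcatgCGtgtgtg
KDM2A internal: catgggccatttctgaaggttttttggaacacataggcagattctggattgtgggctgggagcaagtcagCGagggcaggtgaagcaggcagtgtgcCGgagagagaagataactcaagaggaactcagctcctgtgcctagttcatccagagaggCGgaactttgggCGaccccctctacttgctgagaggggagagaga

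These 5 windows held 28, 27, 31, 16 and 4 CG dinucleotides in 201 bp. Over whole consensus peaks the NSD2 peak was the densest of the members, with 12.8 CG per 100 bp, above 96.5% of the 8825 consensus peaks, whose median was 7.50. ASH1L followed with 11.5, then NSD1 with 9.60, NSD3 with 9.39, KDM2A at its canonical promoter with 8.85 and KDM4C with 8.53. The peaks away from canonical promoters were poorer in CG: 6.19 per 100 bp at the internal KDM4B promoter, 2.96 in a KDM4B intron and 2.61 at the internal KDM2A promoter. SETD2 and KDM4A had no consensus peak, and the 250 bp directly upstream of their canonical TSS are shown for comparison, in hg38 and 5′ to 3′ along the gene: SETD2 chr3:47164114-47164363 on the minus strand, which overlaps an exon of the antisense RNA KIF9-AS1, and KDM4A chr1:43649899-43650148 on the plus strand.
SETD2: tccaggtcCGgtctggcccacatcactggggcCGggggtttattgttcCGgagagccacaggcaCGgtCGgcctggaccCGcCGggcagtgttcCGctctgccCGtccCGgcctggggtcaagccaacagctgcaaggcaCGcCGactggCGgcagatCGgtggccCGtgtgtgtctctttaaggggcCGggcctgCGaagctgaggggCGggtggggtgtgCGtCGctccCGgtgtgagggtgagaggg
KDM4A: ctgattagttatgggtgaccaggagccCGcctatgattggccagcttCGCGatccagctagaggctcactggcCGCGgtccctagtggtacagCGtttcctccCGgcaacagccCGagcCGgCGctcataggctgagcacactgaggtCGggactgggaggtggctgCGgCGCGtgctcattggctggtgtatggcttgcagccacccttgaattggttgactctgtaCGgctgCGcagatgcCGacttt

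The SETD2 stretch held 21 CG and the KDM4A stretch 17, against a median of 18 over the same 250 bp of all 20033 genes. The same stretch held 50 CG at NSD2, 41 at NSD1, 40 at KDM2A, 36 at KDM4B, 34 at NSD3, 23 at ASH1L and 21 at KDM4C. NSD2 exceeded 99.8% of all genes by this count and KDM4A 45.3%. The order of CG counts was thus not the order of binding, since KDM4B ranked above NSD3 and had no consensus peak at its canonical TSS.

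DPPA2 and DPPA4 occupied the canonical promoters of NSD1, NSD2, NSD3, ASH1L, KDM2A and KDM4C in H661. These were 6 of 9 members, against 26.3% of all genes. At any TSS there were 7 of 9, KDM4B being the addition, against 29.5% of all genes. All genes include promoters poor in CG and promoters without H3K27ac. The share among promoters like those of the members was not computed. The folds over input below are the deposited heights of the tallest narrow peak in the consensus region, given for DPPA2 replicates 1 and 3 and then DPPA4 replicates 2 and 3. NSD1, whose peak at chr5:177131570-177134810 spans 3241 bp, had folds of 41.6, 20.5, 17.6 and 15.8. In every one of the 4 libraries this peak stood above at least 98.7% of consensus peaks. NSD2 (chr4:1870005-1872373) had 23.0, 24.5, 17.5 and 8.36, at the 99.4th percentile of consensus peaks in DPPA2 replicate 3 and at the 81.6th in DPPA4 replicate 3. NSD3 (chr8:38381566-38383758) had 15.2, 7.40, 8.40 and 9.97. All 3 NSD genes, which add H3K36me2, thus lay above the median consensus fold of each library, which was 10.2, 6.27, 6.25 and 5.93. ASH1L (chr1:155562388-155562994), the other H3K36me2 writer, had 8.04, 5.17, 5.94 and 4.40, below those medians in each library. The start sites of MSTO1 and ASH1L-AS1 lie within 1500 bp of the ASH1L start, and that of a long noncoding RNA lies in the NSD3 peak, so these peaks cannot be assigned to 1 gene. The start of KIF9-AS1 lies as near to that of SETD2, and the start of another protein-coding gene to that of KDM4A. Peaks and marks at the canonical promoters of SETD2 and KDM4A, given below, cannot be assigned to 1 gene either.

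Among the demethylase genes, KDM2A (chr11:67117337-67118793) had folds of 20.8, 12.2, 10.7 and 6.80 upstream of its canonical TSS. Its internal promoter (chr11:67239403-67240053) had 8.32, 7.68, 8.39 and 5.26. KDM4C (chr9:6758103-6759075) was the weakest of the bound canonical promoters in DPPA4 replicate 3, with 6.82, 5.24, 6.45 and 3.69. KDM4B had its peaks inside the gene, with 20.7, 8.51, 10.3 and 10.0 at the internal promoter (chr19:5047334-5048496) and 8.96, 6.56, 9.0 and 7.04 in an intron (chr19:5030115-5031771) with no start site near. The canonical KDM4B promoter had lower peaks in all 4 libraries, 6.14, 5.70, 4.65 and 3.48, which did not overlap enough to form a consensus. DPPA2 replicate 1 alone held 82 narrow peaks in the KDM4B body, against 5 in DPPA2 replicate 3, 10 and 27 in the DPPA4 replicates, in lists of 69810, 26554, 26349 and 30497 peaks in the same order. Both the KDM4B counts and the lengths of the lists thus differed between libraries. SETD2 also had peaks in all 4 libraries without a consensus, at 7.24, 5.98, 4.45 and 5.00, and became a call when DPPA2 replicate 1 was left out. KDM4A had a peak of 6.39 in DPPA2 replicate 3 and of 7.30 in DPPA4 replicate 2 and none in the other 2 lists. When over 50% of each peak had to be shared, 4 members were still called, ASH1L, KDM2A, KDM4C and NSD1, and NSD2, NSD3 and KDM4B were not. The broad islands of all 4 libraries reached all 9 canonical promoters, but they reached those of 61.0% to 70.2% of all genes as well.

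**Figure D1:**
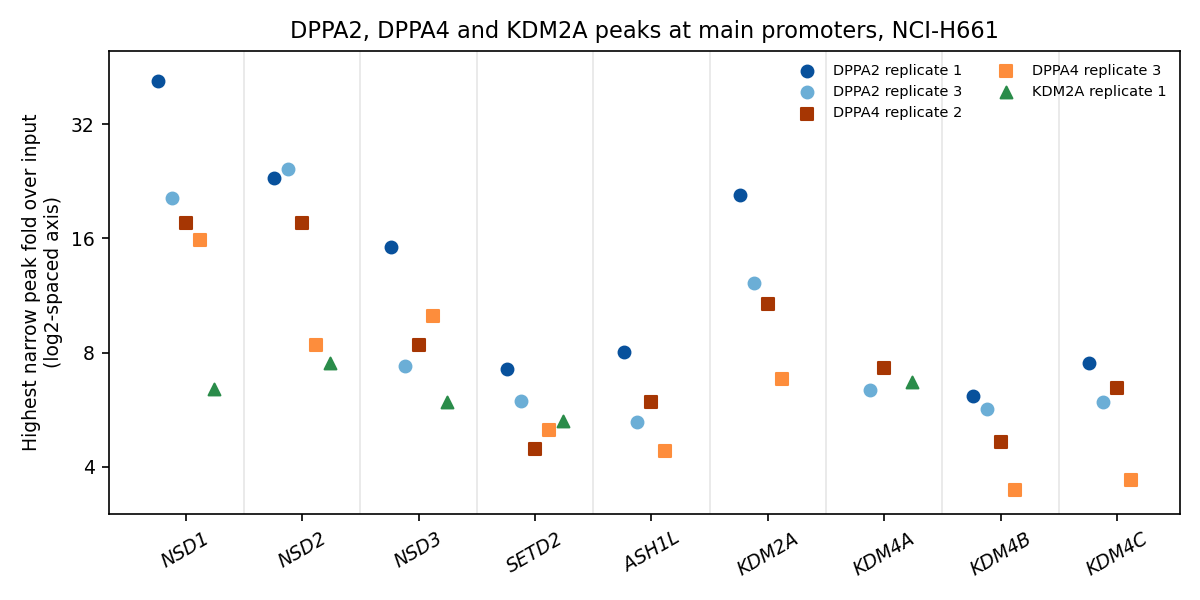
Highest narrow peak fold over input at the canonical promoter of each member in NCI-H661, on a log2-spaced axis, with 1 point per library of DPPA2, DPPA4 and KDM2A. A library without a peak has no point, as at KDM4A for DPPA2 replicate 1 and DPPA4 replicate 3. NSD1 and NSD2 reach above 20 in both DPPA2 libraries, and SETD2, KDM4A, KDM4B and KDM4C stay below 8 in every library with a peak. Among the latter KDM4C had a consensus peak at its canonical promoter, so height alone did not separate the promoters called from the others.

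The KDM2A protein had narrow peaks at the canonical promoters of 5 of 9 members in H661: NSD1, NSD2, NSD3, SETD2 and KDM4A. This was 1 library with 3093 narrow peaks, and 10.5% of all genes had such a peak at the canonical TSS and 11.7% at any TSS, where the same 5 members had one. The folds were 7.54 at NSD2, 6.69 at KDM4A, 6.41 at NSD1, 5.93 at NSD3 and 5.29 at SETD2. There was no KDM2A narrow peak at the KDM2A gene itself, nor at ASH1L, KDM4B or KDM4C. NSD1, NSD2 and NSD3 were therefore the members with both a DPPA2/4 consensus and a KDM2A peak, while SETD2 and KDM4A had the KDM2A peak alone. With at least 300 bp of overlap with the promoter required, NSD1 and NSD2 were left of the 5. Broad KDM2A islands covered 8 of 9 canonical promoters, all but KDM4C, and 50.5% of all genes. SUZ12, a core subunit of the H3K27 methylating complex PRC2, also 1 library, had no narrow peak and no broad island at any member, against 15.6% of canonical promoters of all genes, and 17.3% at any TSS, by narrow peaks and 23.4% by islands.

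All 9 canonical promoters carried H3K27ac, a mark of active promoters and enhancers, in both H661 libraries, against 58.1% of all genes and 61.3% at any TSS. Here and below, reads are summed over the islands at a promoter, and each log2 fold is that of its highest island. The promoter is the joined window of the canonical TSS and the starts next to it. For H3K27ac in H1299 it is 1500 bp on either side of the canonical TSS alone, so these reads are not like for like between the lines. NSD1 had 167 and 508 reads in its promoter islands in replicates 1 and 2, at log2 folds of 3.75 and 4.68. NSD2 had 69 and 324 reads, at 3.98 and 4.68. KDM2A had the highest log2 folds of a single island among the members, 5.32 and 6.29. Its 178 and 481 reads were summed over 2 islands in each library. KDM4B had the fewest, 21 and 81 reads over 500 and 700 bp. KDM4B was also the member with H2AK119ub, the product of PRC1, at its canonical promoter in both H661 libraries, with 38 and 81 reads at log2 folds of 2.38 and 2.05. That made 1 of 9 members against 24.3% of all genes, and at any TSS it was also 1, against 28.4%. H3K4me1, which flanks active starts and marks enhancers, was called at the canonical promoters of KDM4A, KDM4B and NSD1, 3 of 9 against 29.6%, and at any TSS of KDM2A as well, 4 of 9 against 37.2%. H3K9me3, a heterochromatin mark, was called at no TSS of a member in H661, H1299 control or H1299 DOX, where 7.32%, 0.844% and 0.834% of all genes had it at any TSS and 4.14%, 0.19% and 0.165% at the canonical TSS.

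In H1299 the canonical promoters of KDM4A, KDM4C, NSD2, NSD3 and SETD2 carried H3K27ac in both control libraries, 5 of 9 members against 38.3% of all genes, and with an internal promoter of KDM2A it was 6 of 9 at any TSS against 41.5%. With DOX all 9 did, against 51.3% of all genes, and 54.1% at any TSS. The 4 that were added were NSD1, ASH1L, KDM2A and KDM4B, and 23.3% of the 12369 promoters not called in control were called with DOX. NSD1 was the member with an island in both DOX libraries and in neither control library, as were 5.03% of all genes, and no member went the other way, as did 0.0799%. NSD1 had 140 reads in DOX replicate 1 and 41 in replicate 2, the latter over 2 islands. The highest island of each stood at a log2 fold of 3.32 and 4.00. Before any limit was set, its promoter had no deposited island in control replicate 1 and 1 island of 49 reads against 10 input reads in control replicate 2, at a log2 fold of 0.86. The NSD1 read count of control replicate 2 was therefore above that of DOX replicate 2, while the input reads beside them were 10 and 3. ASH1L had 96 and 124 reads in control, at log2 folds of 0.85 and 1.61, and 293 and 138 with DOX, at 3.39 and 3.20. Its input reads were 15 in each control and 8 in each DOX library. KDM2A had 37 and 69 reads in control, at 0.80 and 1.86. With DOX it had 238 reads over 3 islands and 92 over 2, beside 6 and 5 input reads. The folds of 7.19 and 5.24 with DOX belong to the highest of these islands alone and not to the summed reads. KDM4B had 21 and 28 reads in control, at 0.98 and 2.65, and 112 and 36 with DOX, at 2.00 and 2.90. In control replicate 1 the last 3 genes thus had islands just under the limit of 1, and when all deposited islands were taken 8 members were called in control at any TSS, in place of 6. DOX replicate 1 had the most islands of these libraries, 49726 against 28105 to 35357 in the other 3, and it had the highest count at every member. The part of sequencing depth in this was not tested.

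**Figure D2:**
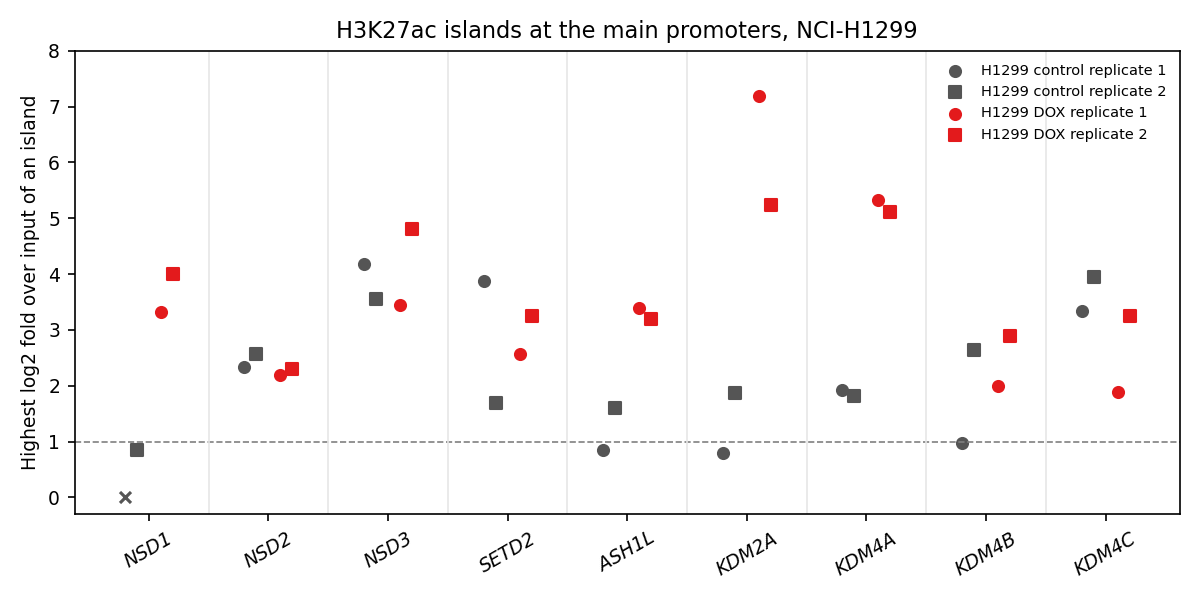
Highest log2 fold over input of the deposited H3K27ac islands within 1500 bp of each canonical TSS in NCI-H1299, before limits, with 1 point per library. The dashed line is the limit of 1, and the cross marks NSD1 in control replicate 1, which had no island. ASH1L, KDM2A and KDM4B lie under the line in control replicate 1 alone, and the 2 DOX points of NSD1, ASH1L, KDM2A and KDM4A lie above both control points.

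The read counts of joined regions were compared with edgeR's quasi-likelihood test and Benjamini-Hochberg adjustment over all regions of a mark, and a region was called at an adjusted p under 0.05 with a log2 change of at least 0.5 in size. For H3K27ac, 0% of the 3436 regions tested between DOX and control were called, with 188 at an unadjusted p under 0.05, and DESeq2 and edgeR's likelihood ratio test called 0 as well. NSD2 was the 1 member with a region tested, since only regions mostly covered by islands in every library entered the test. That region ran from the NSD2 start over 14600 bp (chr4:1869601-1884200) and had 313 and 360 reads in control and 933 and 360 with DOX. Relative to the reads in the regions tested, its log2 change was 0.07 ± 0.17 (SE, n = 2 libraries per group), adjusted p = 0.998 by edgeR's quasi-likelihood test. A rise or fall shared by most regions is removed by this scaling and was not tested. The other 10 member regions with H3K27ac in all 4 libraries were not tested, being covered too thinly in some library.

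H3K4me1 in H1299 was called at the canonical promoters of 4 members in each condition, against 37.1% of genes in control and 43.9% with DOX. In control these were KDM4A, KDM4C, NSD1 and SETD2, and with DOX ASH1L, KDM4A, NSD1 and NSD2. At any TSS the mark was called at 7 members in each condition, against 44% and 50% of all genes, all but ASH1L and KDM4B in control and all but KDM4B and KDM4C with DOX. ASH1L was the member with islands in both DOX and neither control library, as were 3.23% of all genes, and these were small, with 37 and 34 reads at log2 folds of 1.80 and 1.55. Of 7095 regions tested, 0.0282% were called and none of the 4 of members, 0 of which had an unadjusted p under 0.05, and DESeq2 and the likelihood ratio test called none of the 4 either. The region of NSD2 downstream of its start (chr4:1872401-1884700) had 265 and 417 reads in control and 321 and 370 with DOX, a log2 change of -0.08 ± 0.12 (SE), adjusted p = 0.917 by edgeR's quasi-likelihood test. The NSD1 region at its promoter (chr5:177134901-177137000) changed by 0.38 ± 0.27 (SE), adjusted p = 0.772 by the same test. For H2AK119ub no canonical promoter of a member was called in either condition, where 8.8% of genes had it in control and 11.6% with DOX. At any TSS it was called at KDM2A and NSD2 in control, 2 of 9 against 12.5%, and at KDM2A, NSD1 and NSD2 with DOX, 3 of 9 against 15.1%. Of its 132 regions tested 0% were called, 5 having an unadjusted p under 0.05, and the 1 region of a member, at an internal KDM2A promoter (chr11:67240201-67241100), had 13 and 27 reads in control and 13 and 12 with DOX.

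The gene bodies of most members carried H3K36me3, the product of SETD2, in every group. The median share of a member's body covered was 49.2% and 15.9% in the 2 H661 libraries, 22.4% and 28.6% in H1299 control and 38.4% and 34.3% with DOX. Over all genes these medians were 4.81% and 0% in H661, 0% in both control libraries and 0.411% and 0.424% with DOX. KDM4A was covered most in H661, with 94.5% and 69.6%, and had 64.3% and 78.1% in control and 69.2% and 84.2% with DOX. NSD2 had 36.9% and 15.9% in H661, 56.3% and 76.7% in control and 82.1% and 82.2% with DOX. SETD2 itself had 49.2% and 7.85% in H661, 20.5% and 24.6% in control and 35.6% and 34.3% with DOX. KDM4B and KDM4C stood apart from the other 7: KDM4B had 9.87% and 12.8% in H661 and at most 3.96% in any H1299 library, and KDM4C had 4.84% in H661 replicate 1 and at most 0.506% elsewhere. At any TSS, which takes in starts inside the bodies, the mark was called at 8 members in H661, 7 in control and 8 with DOX, against 31.9%, 30.1% and 33.3% of all genes. At the canonical TSS it was called in both libraries at 0 members in H661 and control and at NSD1 alone with DOX, against 7.17%, 7.37% and 9.52% of all genes. Single libraries had islands near some starts, such as 1 of 10 reads at ASH1L in control replicate 2. At NSD1 the call was the edge of 1 region beginning downstream of the TSS (chr5:177134901-177137800) with 54 and 66 reads in control and 51 and 81 with DOX, which changed by -0.10 ± 0.27 (SE), adjusted p = 0.996 by edgeR's quasi-likelihood test. H3K36me2, profiled in H661 alone, was sparse: its median over the member bodies was 0% in both libraries, as it was over all genes, and it was called at no TSS of a member, against 9.7% of all genes at any TSS and 5.49% at the canonical TSS. NSD3 had 4.71% and 1.24% of its body covered by it, KDM4C 1.32% and 0.814%, and KDM4B 0% and 13.7%.

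**Figure D3:**
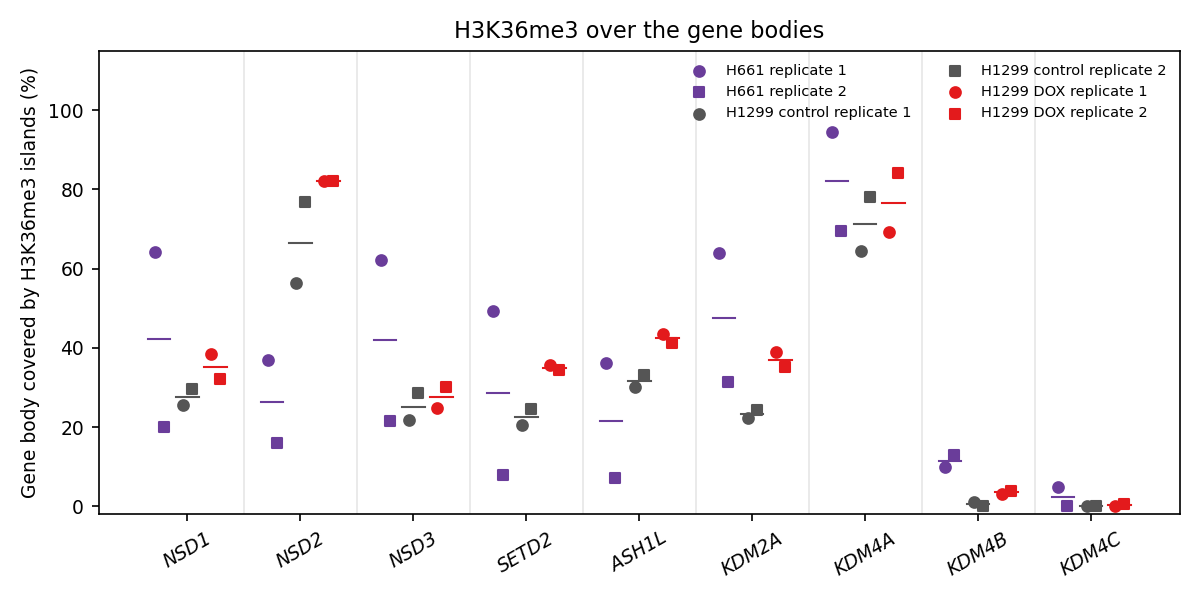
Share of each member's gene body covered by H3K36me3 islands, in percent, with 1 point per library and a line at the mean of the 2 libraries of a group. The H661 libraries lie far apart for most members. NSD2 is the member whose H661 points both lie below both H1299 control points, and KDM4B and KDM4C stay below 13% in all libraries.

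Coverage with DOX lay above control without overlap at NSD1, NSD2, SETD2, ASH1L, KDM2A and KDM4B, 6 of 9 members, and such was the case at 25.7% of all genes. That share counts genes with no H3K36me3 island, 49.1% of all genes in each DOX library, which could not lie above control. Every member had some coverage with DOX, so the 2 shares are not like for like. No member lay below without overlap, as did 2.13% of all genes. The DOX libraries also held more H3K36me3 reads in islands, 3.66 and 3.53 M against 2.68 and 2.77 M in control, and its part in the coverage was not tested. Summed reads over whole gene bodies were scaled by the reads over the genes tested. They passed for 0.235% of the 6813 genes tested and for 0 of 7 members in edgeR's quasi-likelihood test. By the same test 1 member had an unadjusted p under 0.05. DESeq2 called 0 members too. That 1 member was KDM2A, with 801 and 832 reads in control and 1450 and 1255 with DOX, a log2 change of 0.34 ± 0.12 (SE), adjusted p = 0.462. SETD2 changed by 0.24 ± 0.12, NSD2 by 0.12 ± 0.12, ASH1L by 0.08 ± 0.09, NSD1 by 0.01 ± 0.13, NSD3 by -0.17 ± 0.14 and KDM4A by -0.23 ± 0.11 on the log2 scale (SE). The member median was 0.08 and that of all genes 0.01. KDM4B and KDM4C were not tested, since their mean coverage lay under the minimum of 10%.

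By separate regions, 22 of the H3K36me3 regions of members were tested and 0 were called, with 1 at an unadjusted p under 0.05, against 0.21% of 7146 regions. DESeq2 and the likelihood ratio test called 0 of the 22. The 1 was the long NSD2 region over the middle and end of the gene (chr4:1898701-1992400), with 1959 and 2882 reads in control and 3447 and 3426 with DOX. Its log2 change of 0.30 ± 0.07 (SE) had an adjusted p of 0.00843 in edgeR's quasi-likelihood test and lay under the size limit of 0.5. The islands covered 56100 and 84300 bp of it in control and 88700 and 89700 bp with DOX, and per covered length the change was 0.07. The p rests on the replicate block, as without it the change was 0.28 with adjusted p = 0.314, and neither DESeq2, adjusted p = 1.00, nor the likelihood ratio test, adjusted p = 0.303, passed. Control replicate 1 set the difference, since without it the change was 0.04 and without control replicate 2 it was 0.60 and called. In the other genes the regions with the most reads changed by 0.21 ± 0.11 at ASH1L (chr1:155333801-155367900), 0.05 ± 0.15 at KDM2A (chr11:67242601-67257700), -0.06 ± 0.12 at KDM4A (chr1:43652101-43676800), -0.08 ± 0.26 at NSD3 (chr8:38301701-38305600) and -0.10 ± 0.22 at SETD2 (chr3:47078201-47088700), each a log2 change with its SE.

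Between the lines, NSD2 was the member with less H3K36me3 in H661 than in H1299 control. It had 2049 and 3013 island reads over its body in control and 1072 and 643 in H661, although the 2 H661 libraries held more reads over the genes tested, 5564509 and 3275060 against 2561874 and 2679642. The log2 change was -2.37 ± 0.34 (SE, n = 2 libraries per group), adjusted p = 0.0464 by edgeR's quasi-likelihood test, and 3.32% of the 8129 genes tested were called. The median of all genes in this comparison was 0.20 and moved by 0.18 when reads were taken per covered length, so relative to that median NSD2 was lower by a log2 change of -2.56. Per covered length it was -0.59, adjusted p = 0.000718 by the same test. NSD2 was no longer called when control replicate 1 was left out, at -2.63 and adjusted p = 0.0794, or control replicate 2, at -2.13 and adjusted p = 0.151. Both H661 libraries covered less of the NSD2 body than both control libraries did, as at 9.3% of all genes, and the reverse held at KDM2A and KDM4B, as at 23.2%. No H3K36me3 island lay in the first 15000 bp of NSD2 in H661.

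The input moved with this result. H1299 libraries are ranked here among the genes tested between DOX and control, 6610 and 6684 in the control libraries. H661 libraries are ranked among the genes tested between the lines, 7947 and 7425, so the gene sets differ. Within the H3K36me3 islands of NSD2 there were 2.61 and 3.03 input reads per kb in control, above 94.8% and 96.0% of these genes. With DOX there were 3.26 and 3.23, above 93.9% and 93.3%, and in H661 3.73 and 3.64, above 8.81% and 14.4%. The ratio of ChIP to input reads at NSD2 was 12.8 and 11.2 in control, where the gene medians were 20.9 and 19.5. In H661 it was 6.96 and 10.0, where the gene medians were 5.70 and 7.97. It thus stood at the 11.0th and 8.48th percentile of genes in control and at the 80.4th and 79.1st in H661. These ranks ran in the opposite order to the reads, while the ratios themselves did not. At NSD3 the input was 0.857 and 0.901 reads per kb in control, under the gene medians of 1.22 and 1.30, and 8.0 and 6.71 in H661, above 92.5% and 86.8% of genes. The number of gene copies in each line and the amount of the mark per copy cannot be told apart by these counts.

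**Figure D4:**
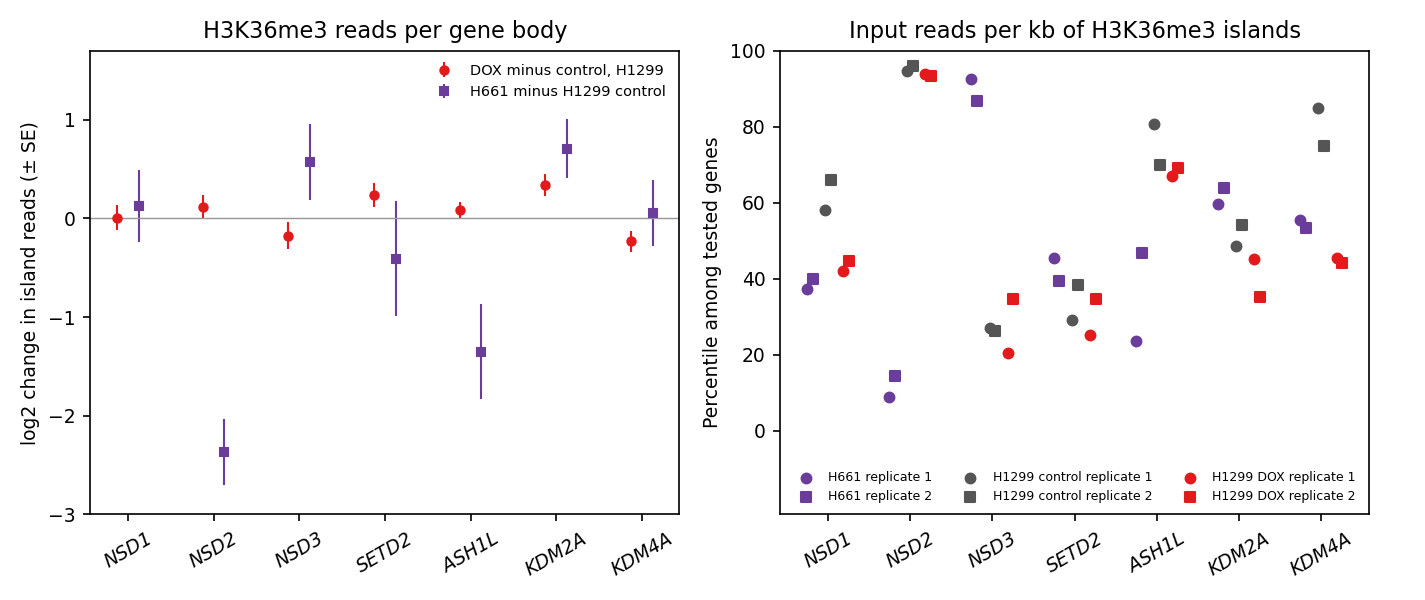
Left, log2 change in H3K36me3 island reads per gene body with its SE for the 7 members tested, DOX minus control in H1299 and H661 minus H1299 control. Right, percentile among the genes tested of the input reads per kb within the H3K36me3 islands of each member, with 1 point per library. H1299 libraries are ranked among the genes tested between DOX and control, and H661 libraries among those tested between the lines. NSD2 is the lowest point on the left at -2.37, and on the right its H1299 libraries lie above 93 and its H661 libraries below 15.

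The other 6 members tested did not pass between the lines. ASH1L had 1899 and 2029 reads in control and 2396 and 605 in H661, a log2 change of -1.35 ± 0.48 (SE), adjusted p = 0.140 by edgeR's quasi-likelihood test. DESeq2 called it, at -1.38 and adjusted p = 0.0206. KDM2A changed by 0.71 ± 0.30, NSD3 by 0.57 ± 0.38, SETD2 by -0.41 ± 0.58, NSD1 by 0.12 ± 0.36 and KDM4A by 0.05 ± 0.33 on the log2 scale (SE). The H661 replicates lay far apart at SETD2, with 2069 and 428 reads, and at NSD3, with 2617 and 1008. Of the H3K36me3 regions, 14% of 1405 were called and 0 of the 2 of members, at KDM2A and KDM4A, with neither at an unadjusted p under 0.05 and neither called by DESeq2 or the likelihood ratio test.

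At promoters the lines differed in H3K27ac at NSD3 and SETD2, 2 of the 4 member regions tested, against 21.8% of 3005 regions. The NSD3 promoter region (chr8:38380001-38387500) had 149 and 128 reads in control and 331 and 845 in H661, a log2 change of 1.02 ± 0.20 (SE), adjusted p = 0.00126 by edgeR's quasi-likelihood test. The covered length of this region was 4200 and 4300 bp in the control libraries, below the 7300 and 6500 bp of H661, and per covered length it did not pass, at 0.47 and adjusted p = 0.109. Without the coverage minimum it did not pass either, at 0.65 and adjusted p = 0.0732, and without H661 replicate 2 the region did not enter the test. Its islands held 11 and 8 input reads in control and 57 and 51 in H661. The SETD2 promoter region (chr3:47162901-47165500) had 41 and 61 reads in control and 94 and 281 in H661, a log2 change of 0.78 ± 0.25 (SE), adjusted p = 0.0285 by the same test. SETD2 was not called by DESeq2, adjusted p = 0.118, without control replicate 1, at 0.45, without H661 replicate 2, at 0.57, or without the coverage minimum, at 0.40. A second NSD3 region at the end of the gene (chr8:38267701-38269900) changed by 0.47 ± 0.24 and the KDM4C promoter region (chr9:6756401-6757900) by 0.37 ± 0.25 (SE), and neither passed. For H3K4me1, 15% of 1206 regions were called and 0 of 2 of members, with neither at an unadjusted p under 0.05 and neither called by DESeq2 or the likelihood ratio test. KDM4C (chr9:6786901-6788300) changed by 0.63 ± 0.34 and KDM4A (chr1:43705501-43706900) by -0.18 ± 0.32 on the log2 scale (SE). No member had a region tested for H2AK119ub or H3K9me3 between the lines.

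The start of NSD2 differed in extent as well. From 2000 bp upstream to 15000 bp downstream of its TSS, H3K27ac islands covered 9000 and 7300 bp in H1299 control, 15893 and 8400 bp with DOX and 3000 and 3200 bp in H661. H3K4me1 covered 8300 and 13793 bp in control, 10193 and 11100 bp with DOX and 1200 and 900 bp in H661. The longest H3K27ac island there was 2200 and 3200 bp in control, 11200 and 5500 bp with DOX and 1400 and 2600 bp in H661. For H3K4me1 it was 4200 and 11900 bp in control, 9000 and 5800 bp with DOX and 1200 and 500 bp in H661. The H1299 libraries thus had more of this stretch covered than H661 in both conditions. The H3K27ac islands there held 27 and 22 input reads in control, 73 and 45 with DOX and 7 and 8 in H661. The part of gene copies in this extent was not tested. In control the H3K27ac part was split over 7 and 6 separate islands. This pattern was chosen for display after its values were seen. It is a description and was not tested, as regions drawn from the islands of one line hold few reads in the other by construction.

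**Figure D5:**
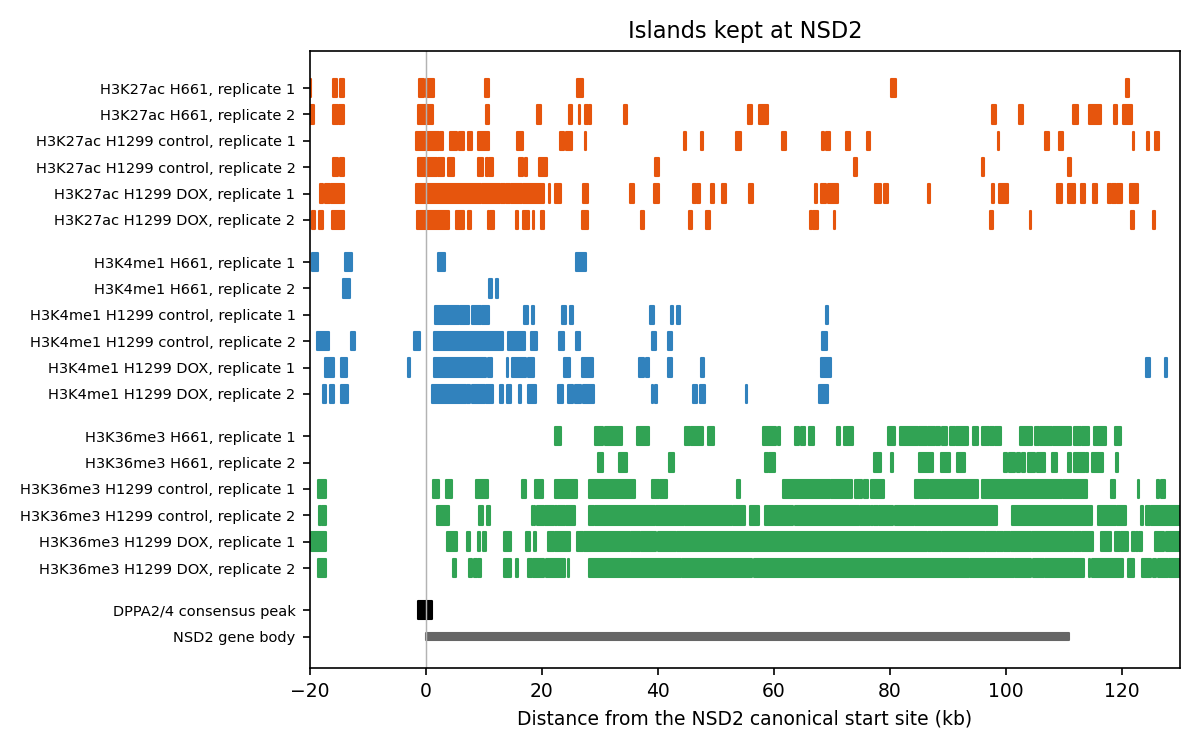
Islands of H3K27ac, H3K4me1 and H3K36me3 at NSD2 in each library, by distance from the canonical start site in kb, with the DPPA2/4 consensus peak of H661 and the gene body. From 2000 bp upstream to 15000 bp downstream of the start, H3K27ac and H3K4me1 islands cover more in every H1299 library than in H661. Further into the gene, H3K27ac islands lie in both lines. H3K36me3 islands cover 56.3% to 82.2% of the body in H1299 and 36.9% and 15.9% in H661.

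The other genes of H3K36 methylation were taken from a list of 7 writers and erasers, 14 readers and 2 elongation partners. DPPA2/4 consensus peaks lay at the canonical promoters of 2 of 7 writers and erasers, KDM2B and RIOX1, of 8 of 14 readers, among them the DNA methyltransferases DNMT3A and DNMT3B with GLYR1 and MORF4L1, and of 0 of 2 partners, against the 26.3% of all genes. H3K27ac in H661 was called at all 23, against 58.1% of all genes, in H1299 control at 4, 13 and 2 of these groups, against 38.3%, and with DOX at 6, 14 and 2, against 51.3%. No region or gene body of these genes was called between DOX and control. Between the lines, 2 of their 10 H3K27ac regions tested were called against 21.8% of all regions, 2 of 6 H3K36me3 regions against 14% and 2 of 16 gene bodies against 3.32%. H3K27ac was higher in H661 at HDGFL2, with a log2 change of 0.77 and adjusted p = 0.0233, and lower at PWWP2A, at -0.93 and adjusted p = 0.00791, both by edgeR's quasi-likelihood test. H3K36me3 regions were higher at BRPF1, at 0.90 and adjusted p = 0.00628, and lower at PHF1, at -0.73 and adjusted p = 0.0261, by the same test. H3K36me3 over gene bodies was higher in H661 at DNMT3B, at 3.87 and adjusted p = 0.0474, and lower at PWWP2A, at -2.75 and adjusted p = 0.0464, by the same test.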

How the data were processed

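The authors aligned reads to hg38 and called islands and peaks for each library over its input. Tools named in the submitters' processing notes are MACS2, deepTools 3.5.0, Picard 2.6.0, SAMtools 1.9, BWA 0.7.13 and Trim Galore 0.6.6. The 38 deposited EPIC2 lists give each island raw counts of ChIP and input reads, a p-value with its FDR, a score and a log2 fold over input, where each library is scaled to its size. The 6 deposited MACS2 lists give each narrow peak a fold enrichment (a ratio), a score and −log10 p and q. Depth beyond the reads in islands was not used here. Islands and peaks with an FDR below 0.05 and a log2 fold over 1 were kept, as in the study's methods, and a histone mark was called where both replicates had an island.

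Islands of the 4 libraries of a contrast were joined into regions, and the deposited counts were summed per region and library. A region was tested where every library covered at least 50% of it. H3K36me3 reads were also summed over gene bodies for genes with a mean of at least 10 reads and 10% coverage. Reads outside islands are missing from these counts, so a change mixes signal with the extent of the calls. Counts were tested with edgeR 4.0.16 (quasi-likelihood, TMM, Benjamini-Hochberg) in R 4.3.3, which was checked on simulated data, with DESeq2 1.42.0 as an alternative. DOX contrasts had the replicate number as a block, after the study's methods, which describe complete batches. Same-numbered deviations correlated between 0.026 and 0.259 over the DOX contrasts, the highest for H3K27ac. The contrast of the lines had no block. Sequences were read from hg38. No person's data were involved, as both are established cell lines.

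All 9 members are named, with the tested region of the most reads per member, mark and contrast and every called region. Of other genes, at most 4 called in a list are named, in alphabetical order. The members, gene lists and markers were chosen with earlier results of these data known. Tried alternatives were other overlap, fold and window limits, other scalings and filters, other tests, the block and leaving out each library. CUT&RUN, H3K27me3 and H3K4me3 data are not analysed here.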

Additional observations from a re-analysis of the deposited data

How the results depend on the processing

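Over 47 results, 314 of 424 alternatives stayed within the limits set for a change, and 110 moved a count or a value past them. The signs of single changes were not compared in this tally. Per covered length some changes with DOX turned sign, such as that of the KDM2A gene body from 0.34 to -0.009 on the log2 scale. Counts of members called at promoters moved as follows. DPPA2/4 fell from 7 to 4 with over 50% of each peak shared, and KDM2A from 5 to 2 with at least 300 bp of overlap. With windows of 500 bp, H3K4me1 fell to 1 in H661, 1 in control and 4 with DOX, and H2AK119ub in control to 1. At the canonical TSS alone, H3K36me3 came to 0 in H661, 0 in control and 1 with DOX, H3K4me1 to 4 in control and 4 with DOX, and H2AK119ub to 0 in both. A log2 fold above 2 left H2AK119ub at 1 in both, and the median H3K36me3 coverage fell from 25.2% to 13.9% in control and from 35.2% to 22.8% with DOX.

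With 1 library left out, members called ranged from 7 to 8 for DPPA2/4, 5 to 7 for H3K4me1 in H661, 1 to 2 for H2AK119ub, 1 to 2 for H3K36me2 and 0 to 1 for H3K9me3 in H661, 3 to 4 for H2AK119ub in control and 3 to 5 with DOX, and 6 to 8 for H3K27ac in control. A mark then needed 1 library in place of 2, which raises these counts by construction. The median H3K36me3 coverage ranged from 34.3% to 38.4% with DOX and from 15.9% to 49.2% in H661.

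For DOX against control, regions called of all tested moved without the coverage minimum to 12 for H3K27ac, 7 for H3K4me1, 183 for H3K36me3 and 1 for H3K9me3. H3K4me1, with 2 called, came to 0 by DESeq2, 4 by the likelihood ratio test, 5 with DESeq2 size factors, 5 with a mean of at least 20 reads and 0 per covered length. H3K36me3, with 15 called, came to 0 by DESeq2, 9 by the likelihood ratio test and 0 per covered length. H3K9me3 came to 4 by the likelihood ratio test. Gene bodies, with 16 called, came to 80 by DESeq2, 10 with DESeq2 size factors, 5 without the read filter and 2 per covered length. By adjusted p alone 1 region of a member was called, at NSD2 for H3K36me3. Leaving out 1 library gave 0 to 29 regions for H3K27ac, 0 to 19 for H3K4me1, 0 to 57 for H3K36me3, 0 to 2 for H3K9me3 and 0 to 47 gene bodies, with 0 to 1 member regions for H3K36me3, the 1 without control replicate 2.

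For H661 against control, counts without the coverage minimum were 1938 for H3K27ac, 1792 for H3K4me1, 1665 for H3K36me3, 313 for H2AK119ub and 79 for H3K9me3, with 3 member regions for H3K4me1 and 4 for H3K36me3. DESeq2 gave 369 for H3K27ac with 1 member region, NSD3, 87 for H3K4me1 and 2420 gene bodies with 2 members, NSD2 and ASH1L. Per covered length there were 88 for H3K4me1, 80 for H3K36me3, 3 for H2AK119ub, 443 gene bodies and 1 member region for H3K27ac, SETD2. The likelihood ratio test gave 8 for H2AK119ub, and 596 gene bodies were called without the read filter. Leaving out 1 library gave 694 to 1389 for H3K27ac, 28 to 413 for H3K4me1, 34 to 1285 for H3K36me3, 0 to 21 for H2AK119ub, 0 to 6 for H3K9me3 and 157 to 3671 gene bodies, and among the members 0 to 4 regions for H3K27ac, 0 to 3 for H3K36me3 and 0 to 4 gene bodies. The member gene bodies came to 0 without either control library and to 4 without either H661 library. The member regions for H3K27ac came to 4 without H661 replicate 1 and to 0 without H661 replicate 2. The cause of these moves was not tested.

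Without the replicate block, the DOX contrasts gave 0 for H3K4me1, 3 for H3K36me3 and 0 gene bodies, and no call of a member changed, though the NSD2 region that passed by adjusted p alone then had adjusted p = 0.314 by edgeR's quasi-likelihood test. With a replicate block the contrast of the lines, whose samples share only a number, gave 0 for H2AK119ub and 0 gene bodies, with 0 members, since NSD2 then had a log2 change of -2.35 and adjusted p = 0.109 by edgeR's quasi-likelihood test. Same-numbered deviations correlated there between -0.307 and 0.126. Depth limits the H1299 lists most, where islands with no input read made up 17.9% to 62.8%, and 2 libraries per group limit every test.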
